A study of Mus musculus with 4 samples.

Results

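The growth hormone and IGF axis of the liver was followed through 10 genes in RNA-seq of mouse livers after hepatectomy. The genes were taken by symbol from the deposited table of 24421 symbols: the receptor Ghr, the feedback inhibitors Socs2 and Cish, the ligand Igf1, the carriers Igfals, Igfbp1, Igfbp2 and Igfbp4, and the insulin receptor genes Insr and Irs2. All 10 were found and all 10 passed the filter on low values, which left 11070 genes for testing. The gelADSC group (2 libraries, numbered 2 and 3 in the table) consisted of hepatectomized mice given adipose-derived stem cells (ADSC) within a fibrin gel. The Control group (2 libraries, numbered 1 and 3) consisted of hepatectomized mice given the gel without cells. Surgery and gel were thus common to both groups, and no liver of an unoperated mouse was analysed here. The labels used here are silent on strain, sex, age, batch, the time after surgery and the origin and dose of the ADSC. They do not say whether the libraries of a group came from separate animals, so the p-values measure a spread between libraries that may be technical.

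Growth hormone binds its receptor on hepatocytes, which activates the kinase JAK2 and the transcription factor STAT5. STAT5 raises transcription of Igf1 and Igfals, whose products travel in blood in a complex with an IGF binding protein, and of Socs2 and Cish, whose products restrain the same receptor. Insulin acts through its receptor, the adaptor IRS2 and the kinase AKT, which keeps FOXO1 out of the nucleus, and Igfbp1 is a classical gene that FOXO1 activates and insulin represses. Igfbp1 is also known as a gene switched on within hours of hepatectomy in rodents.

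The promoter sequences below are shown because they hold the best known letters of each arm, the STAT5 palindrome TTCNNNGAA and the insulin response core CAAAACA. Both motifs were searched on both strands, from 250 bases before to 50 bases after each annotated start in RefSeq, build GRCm38.p6. A window was found for 8 of the 10 genes (12 windows), and none for Socs2 and Insr. Matches stand in capitals, and positions count from the annotated start as 1, with no 0.
Igfbp1, chr11:7197637-7197736, plus strand, core at -108: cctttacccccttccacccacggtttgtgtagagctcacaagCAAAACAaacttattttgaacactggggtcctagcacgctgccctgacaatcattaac
Irs2, chr8:11008936-11009015, minus strand, core reversed at -37: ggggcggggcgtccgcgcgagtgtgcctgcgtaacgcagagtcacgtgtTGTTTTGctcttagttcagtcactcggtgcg
Cish, chr9:107296654-107296683, plus strand, palindromes at 1 and 12: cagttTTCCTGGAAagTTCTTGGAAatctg
Igfals, chr17:24878121-24878220, plus strand, palindrome at -58 of its second annotated start: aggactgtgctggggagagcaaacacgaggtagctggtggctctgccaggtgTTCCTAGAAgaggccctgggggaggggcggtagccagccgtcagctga
Igfals, chr17:24877598-24877627, plus strand, palindrome at -236 of its first annotated start: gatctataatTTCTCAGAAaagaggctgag
The STAT5 palindrome was present in 8.3% of all 32851 windows, and at least 2 copies, as in Cish, in 0.457%. The insulin response core was present in 6.28% of windows. No window of Ghr, Igf1, Igfbp2 or Igfbp4 held either motif, which says only that these letters are not in those windows.

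Values are FPKM, fragments scaled by transcript length and by library size. Steps between the lowest values put the depth of the libraries between about 18100000 and 24400000 reads. At the lowest value of any of the 10 genes this came to about 38.5 reads per kilobase of transcript, and intervals of counting error were not computed because no counts were used. A change is the difference in mean log2(FPKM + 1), gelADSC minus Control, which understates the change of low genes. A gene was called at a Benjamini-Hochberg adjusted p under 0.05 in limma, fitted to all 11070 genes. Of these genes 24.4% were called, 6.92% higher and 17.5% lower in gelADSC, and the median change was -0.25, so each change is also given relative to that median. Of the libraries, Control library 1 weighed most on these totals. Without it 279 genes were higher and 326 lower, against 766 and 1936 with all libraries, and without gelADSC library 2 the numbers were 815 and 1221. Hepatocyte transcripts were abundant in every library, with Alb at 22023 and 38330 FPKM in the gelADSC libraries and 28129 and 31907 FPKM in the control libraries.

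Of the 10 genes, 3 rose in gelADSC (Ghr, Igfals and Igf1), 1 fell (Igfbp1) and 6 were not called. That is 40% called, beside 24.4% of all genes tested, and the share called higher, 3 of 10, stood beside 6.92%. The groups did not overlap for 7 of the 10 genes, beside 69.8% of all genes. Both gelADSC libraries lay above both controls for 6 of the genes and below both for 1, where 19.2% and 50.5% of all genes did so. The median change of the 10 genes was 0.66, against -0.25 over all genes, and 9 of the 10 changes were above 0, against 31.2% of all genes. The genes were chosen with earlier results of these data known, so these shares describe them and test nothing about the group.

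**Figure D1:**
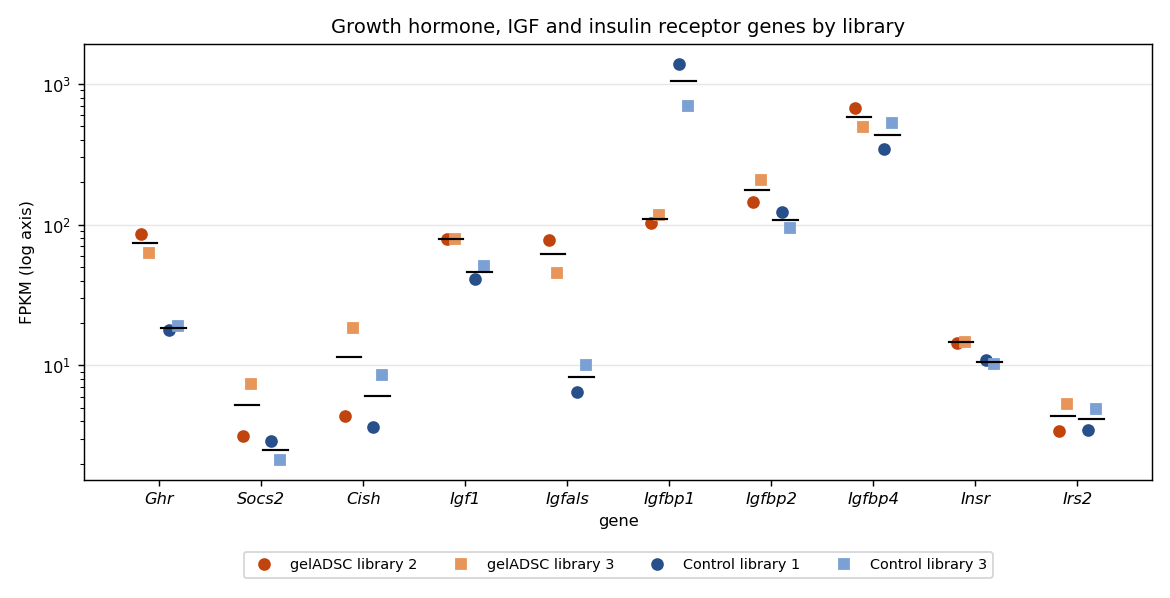
FPKM of the 10 genes on a log axis, 1 point per library, with a black line at each group's mean (gelADSC left, Control right in each pair). Ghr, Igfals and Igf1 stand higher in both gelADSC libraries, and Igfbp1 stands at 102 and 117 FPKM in gelADSC against 1389 and 699 FPKM in Control.

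Ghr, the receptor through which hepatocytes sense growth hormone, was 85.5 FPKM in gelADSC library 2 and 62.7 FPKM in gelADSC library 3, against 17.8 FPKM in Control library 1 and 19.1 FPKM in Control library 3. Every gelADSC value was more than the highest control value, and the controls lay close together. The means were 74.1 ± 16.1 FPKM in gelADSC and 18.4 ± 0.935 FPKM in Control (SD, n = 2 each), a ratio of 4.02. The change was 1.93 (SE 0.21, limma adjusted p = 0.00068), or 2.18 relative to the median of all genes. Only 3.08% of the tested genes had a larger absolute change. In whole tissue, more cells of a type and more RNA per cell cannot be told apart. The summed level of 7 hepatocyte markers was 35095 and 54608 FPKM in the gelADSC libraries and 43938 and 49721 FPKM in the control libraries, so the groups overlapped there. Most of that sum was Alb. Limma called 0 of the 7 (at an unadjusted p under 0.05, 3 were higher and 1 lower). Alb and Hnf4a overlapped between groups. Both gelADSC libraries lay above both controls for Apob, Ttr, Cps1 and Serpina1a, and below both for Apoa1. Over all genes, 69.8% did not overlap.

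The feedback inhibitors Socs2 and Cish differed more between the gelADSC libraries than between the groups. Socs2, which encodes a SOCS protein that marks the growth hormone receptor for degradation, was 3.13 and 7.36 FPKM in gelADSC libraries 2 and 3, against 2.88 and 2.13 FPKM in Control libraries 1 and 3. Its value in gelADSC library 2 was close to Control library 1, and library 3 stood apart. The change was 0.75 (SE 0.33, limma adjusted p = 0.125). Cish, which encodes the related inhibitor CIS, was 4.34 and 18.4 FPKM in gelADSC libraries 2 and 3, against 3.62 and 8.48 FPKM in Control libraries 1 and 3. Here the groups overlapped, since Control library 3 lay between the gelADSC libraries, and the change was 0.62 (SE 0.55, limma adjusted p = 0.432). Between the gelADSC libraries Cish differed by 1.86 and Socs2 by 1.02 on the log2(FPKM + 1) scale, both higher in library 3. Without gelADSC library 2 the change of Cish was 1.55 and that of Socs2 was 1.26. Without gelADSC library 3 the change of Cish was -0.31 and that of Socs2 was 0.24. Each of these fits leaves a single gelADSC library, so only the size of the change is given. Ghr ran the other way between these libraries, lower in library 3 by 0.44, as did Igfals, lower by 0.76. The Cish promoter is the one shown above with a pair of STAT5 palindromes next to its start. Igfals also held the palindrome before its first and second annotated starts, and Socs2 had no window. Whether these motifs bear on the levels was not tested.

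Igf1 encodes insulin-like growth factor 1, the circulating hormone that liver makes under growth hormone. It was 79.2 and 78.9 FPKM in gelADSC libraries 2 and 3, against 41.2 and 51.1 FPKM in Control libraries 1 and 3. The gelADSC libraries were nearly equal and both above the controls. The means were 79.0 ± 0.211 FPKM in gelADSC and 46.1 ± 7.03 FPKM in Control (SD, n = 2 each), a ratio of 1.71, and the change of 0.77 was called (SE 0.19, limma adjusted p = 0.0239). It stayed above 0 under all 10 alternative settings, from 0.62 to 1.03. The limma adjusted p ran from 0.023 to 0.132 over these settings. The call was lost when the fit left out Control library 1 (0.132), gelADSC library 2 (0.068) or gelADSC library 3 (0.057), and with no filter on low values (0.0567).

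Igfals encodes the acid-labile subunit, the liver protein that holds IGF1 in its large circulating complex. It was 77.9 and 45.6 FPKM in gelADSC libraries 2 and 3, against 6.42 and 10.1 FPKM in Control libraries 1 and 3. The groups were far apart, although the gelADSC libraries also differed from each other. The means were 61.8 ± 22.8 FPKM in gelADSC and 8.25 ± 2.58 FPKM in Control (SD, n = 2 each), a ratio of 7.49. The change was 2.74 (SE 0.29, limma adjusted p = 0.00064), or 2.99 relative to all genes, and 70 of the 11070 genes had a larger increase. Per kilobase, Igfals stood at 0.984 and 0.578 of the Igf1 level in gelADSC libraries 2 and 3, against 0.156 and 0.197 of it in Control libraries 1 and 3.

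**Figure D2:**
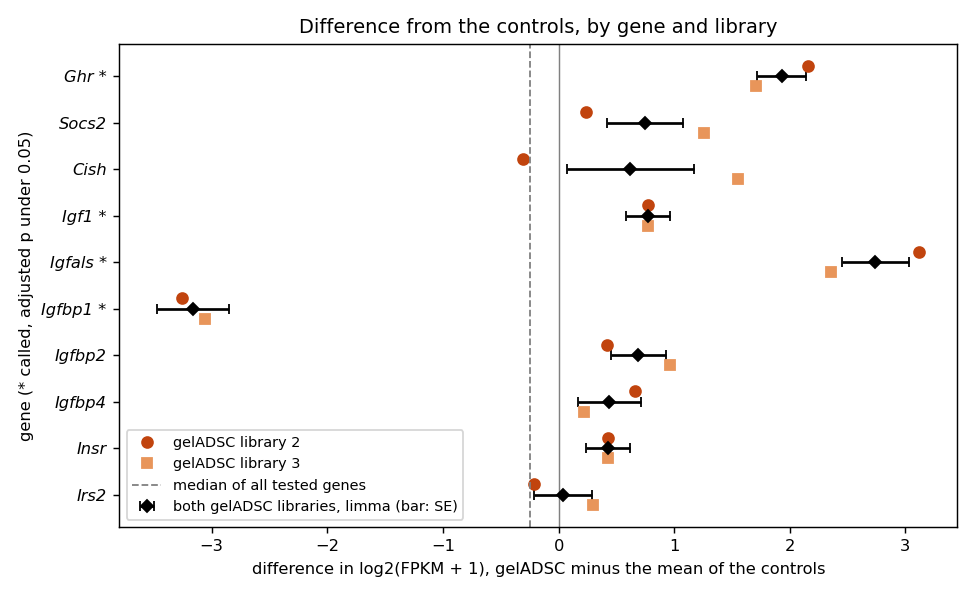
Differences in log2(FPKM + 1) from the mean of the controls for each gene. Diamonds give the limma estimate over both gelADSC libraries with its SE, circles gelADSC library 2 and squares gelADSC library 3, and the dashed line is the median of all tested genes at -0.25. The 2 gelADSC libraries agree closely for Igf1 and Insr and lie farthest apart for Cish, at -0.31 and 1.55.

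Igfbp1, the binding protein that insulin suppresses, was the one gene of the 10 that fell. It was 102 and 117 FPKM in gelADSC libraries 2 and 3, against 1389 and 699 FPKM in Control libraries 1 and 3. Both gelADSC values were far below both controls, and the controls differed from each other by 0.99 on the log2(FPKM + 1) scale. The means were 109.8 ± 10.8 FPKM in gelADSC and 1044 ± 489 FPKM in Control (SD, n = 2 each), so that the level in Control was 9.51 times that in gelADSC. The change was -3.16 (SE 0.31, limma adjusted p = 0.000491), or -2.91 relative to all genes, and 31 of the 11070 genes had a larger decrease. Ghr, Igfals and Igfbp1 were called in all 10 alternative settings, the highest adjusted p in limma being 0.0338 for Ghr, 0.0386 for Igfals and 0.0214 for Igfbp1.

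Igfbp2 and Igfbp4, which also bind IGFs and act locally or in blood, were not called. Igfbp2 was 144 and 209 FPKM in gelADSC libraries 2 and 3, against 122 and 94.3 FPKM in Control libraries 1 and 3. These values did not overlap, and the change was 0.69 (SE 0.24, limma adjusted p = 0.0679). It was called higher with median ratio scaling, which removes most of the overall shift (change 0.93, limma adjusted p = 0.0417). Without gelADSC library 2 the change of Igfbp2 was 0.96. Igfbp4 was the most abundant of the 10 genes in gelADSC, at 669 and 493 FPKM in libraries 2 and 3, against 344 and 523 FPKM in Control libraries 1 and 3. The groups overlapped, with a change of 0.44 (SE 0.27, limma adjusted p = 0.257).

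The libraries of the groups differed in which IGF binding protein transcript led. Over Igfbp1 to Igfbp7, Igfbp1 held 10.4% and 13.4% of the summed FPKM in gelADSC libraries 2 and 3, against 71.7% and 50.7% in Control libraries 1 and 3. Igfbp4 held 68.1% and 56.4% in the gelADSC libraries, against 17.7% and 37.9% in the control libraries. Igfbp2 held 14.7% and 23.9% in the gelADSC libraries, against 6.27% and 6.84% in the control libraries. The sum itself was 982 and 873 FPKM in the gelADSC libraries, against 1939 and 1379 FPKM in the control libraries. Leaving Igfbp1 out turned that order round, with 879 and 756 FPKM in the gelADSC libraries, against 549 and 680 FPKM in the control libraries. For each 100 FPKM of binding protein transcript there were 8.07 and 9.03 FPKM of Igf1 in gelADSC, against 2.12 and 3.71 FPKM in Control. With 2 libraries a group an exact permutation test cannot go below p = 0.333, so none of these ratios was tested. They are levels of RNA and not of protein.

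**Figure D3:**
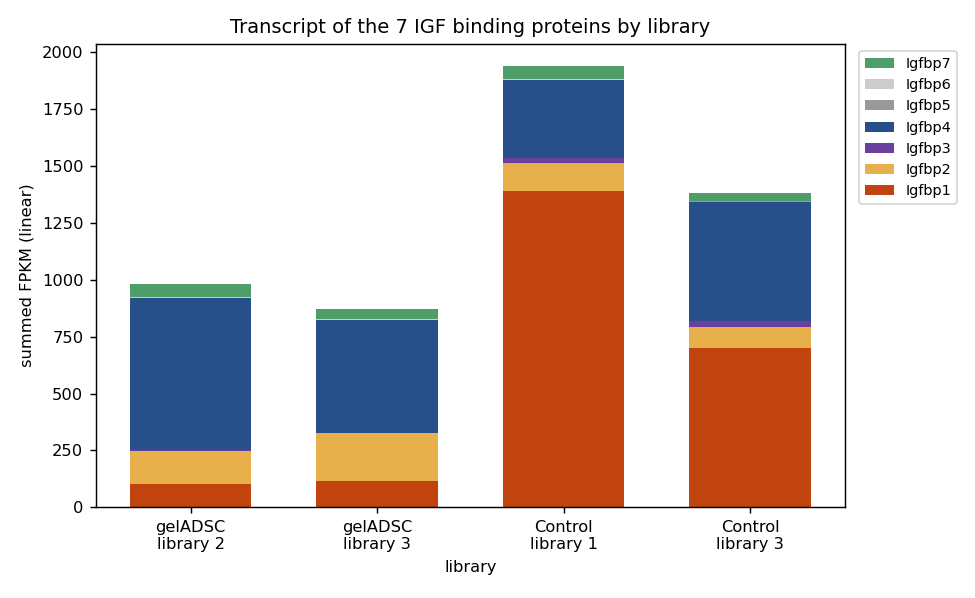
Stacked bars of the FPKM of Igfbp1 to Igfbp7 in each library, on a linear axis from 0. The Igfbp1 segment is 102 and 117 FPKM in the gelADSC libraries against 1389 and 699 FPKM in the control libraries, and Igfbp4 is the largest segment in both gelADSC libraries.

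On the insulin arm neither gene was called. Insr, the insulin receptor, was 14.5 and 14.6 FPKM in gelADSC libraries 2 and 3, against 10.9 and 10.2 FPKM in Control libraries 1 and 3. The groups did not overlap and each was tight, but the change of 0.43 (SE 0.19) had a limma adjusted p of 0.123. It was called higher with median ratio scaling (change 0.66, limma adjusted p = 0.0323) and with quantile normalization (0.73, limma adjusted p = 0.0274). Irs2, the adaptor that passes the insulin signal on in hepatocytes, was 3.42 and 5.31 FPKM in gelADSC libraries 2 and 3, against 3.49 and 4.86 FPKM in Control libraries 1 and 3. Its groups overlapped fully and its change was 0.04 (SE 0.25, limma adjusted p = 0.917). Irs2 and Igfbp1 both carry the insulin response core in the promoters shown above, and 94.2% of the tested genes had a larger absolute change than Irs2, against 0.641% for Igfbp1.

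Further genes of the pathway were read from 6 lists. In growth hormone signalling, 3 of 18 tested genes rose and 2 fell, which is 27.8% called, beside 24.4% of all genes, with a median change of -0.03. Onecut1, a liver transcription factor also named HNF6 that growth hormone is known to induce in rat liver, was 8.88 and 27.3 FPKM in gelADSC libraries 2 and 3, against 1.62 and 2.03 FPKM in Control libraries 1 and 3 (change 2.57, SE 0.42, limma adjusted p = 0.00425). Prlr, the prolactin receptor and closest relative of Ghr in this list, was 8.91 and 9.12 FPKM in gelADSC, against 2.44 and 3.14 FPKM in Control (change 1.41, limma adjusted p = 0.00266). Both stood higher in each gelADSC library than in either control. Among the SOCS genes, Socs4 rose (3.42 and 4.17 FPKM in gelADSC, 1.44 and 1.23 FPKM in Control). Socs3, the inhibitor best known downstream of interleukin-6, fell (14.2 and 8.78 FPKM in gelADSC, 30.3 and 36.2 FPKM in Control), with a change of -1.49 (limma adjusted p = 0.00437). Socs5 fell as well (1.49 and 1.42 FPKM in gelADSC, 4.76 and 2.75 FPKM in Control).

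The kinase and the transcription factors below the receptor were not called. Jak2 was 3.43 and 3.72 FPKM in gelADSC, against 5.12 and 4.02 FPKM in Control (change -0.28, limma adjusted p = 0.362). Stat5b, the main STAT5 form of liver, was 9.94 and 12.5 FPKM in gelADSC, against 8.91 and 7.66 FPKM in Control (change 0.39, limma adjusted p = 0.194). Stat5a was 5.43 and 6.11 FPKM in gelADSC, against 3.81 and 3.55 FPKM in Control (change 0.53, limma adjusted p = 0.0873). Both gelADSC libraries lay above both controls for Stat5a and Stat5b and below both for Jak2, as for 19.2% and 50.5% of all genes. Hnf4a, the most abundant gene of the list, was 157 and 179 FPKM in gelADSC, against 168 and 197 FPKM in Control (change -0.12, limma adjusted p = 0.686), and its change was 0.12 with median ratio scaling. Without Control library 1 the list had 1 gene higher and 0 lower, and adjusted p values were 0.11 for Onecut1, 0.0727 for Socs4, 0.0653 for Socs3 and 0.175 for Socs5. Without Control library 3 the value for Onecut1 was 0.0503, and its change was 3.33 without gelADSC library 2 and 1.81 without gelADSC library 3. With median ratio scaling 5 genes of the list were higher and 0 lower, and the calls of Socs3 (0.0554) and Socs5 (0.0571) were lost. Bcl6, a repressor known to be lowered by growth hormone in mouse liver, was 16.9 and 2.93 FPKM in gelADSC libraries 2 and 3, against 5.68 and 3.66 FPKM in Control libraries 1 and 3 (change 0.59, SE 0.58, limma adjusted p = 0.481). It was highest in gelADSC library 2 and lowest in gelADSC library 3, where Cish and Socs2 were highest. Jak2, Stat5a, Stat5b and Bcl6 were named after their values were seen.

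**Figure D4:**
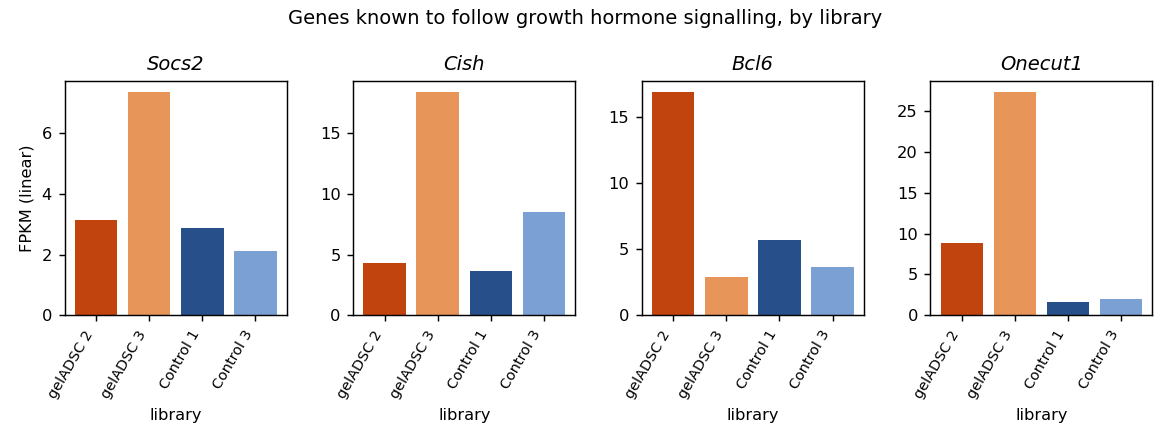
FPKM of Socs2, Cish, Bcl6 and Onecut1 in each library, with 1 bar per library on linear axes from 0. Socs2, Cish and Onecut1 are highest in gelADSC library 3 (7.36, 18.4 and 27.3 FPKM), and Bcl6 in gelADSC library 2 (16.9 FPKM). Igf1 and Igfals, not drawn here, were not higher in gelADSC library 3. In gelADSC libraries 2 and 3 Igf1 was 79.2 and 78.9 FPKM, and Igfals 77.9 and 45.6 FPKM. Bcl6 was chosen after its values were seen.

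Of the other IGF ligands, receptors and carriers, 4 of 15 reached the filter and limma called 0 higher and 1 lower (at an unadjusted p under 0.05, 1 and 1). That is 25% called, beside 24.4% of all genes. Igfbp3, the main partner of the acid-labile subunit in blood, fell to 3.99 and 2.48 FPKM in gelADSC libraries 2 and 3, against 23.2 and 26.3 FPKM in Control libraries 1 and 3. Its change was -2.62 (SE 0.23, limma adjusted p = 0.00026), the opposite direction to Igfals. In rat liver Igfbp3 is known from Kupffer and endothelial cells. The summed level of 5 Kupffer markers was 257 and 144 FPKM in gelADSC, against 189.7 and 235 FPKM in Control, with 0 called by limma (at an unadjusted p under 0.05, 2 higher and 1 lower). The summed level of 6 endothelial markers was 90.4 and 86.8 FPKM in gelADSC, against 84.0 and 77.8 FPKM in Control. Of these 6, 2 were called higher and 1 lower, beside 6.92% and 17.5% of all genes. No marker of either list was at 0 in all libraries, and the part of these cells in the Igfbp3 result was not tested. Igfbp7 was the most abundant of this list, with 59.4 and 47.7 FPKM in gelADSC and 58.3 and 35.0 FPKM in Control (change 0.23, limma adjusted p = 0.542), and its change was -0.13 without Control library 3. Igf2, the fetal growth factor, read at most 0.213 FPKM in any library, and Igf1r, the IGF1 receptor, at most 0.373 FPKM, both below the filter.

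In insulin receptor signalling, 1 of 26 tested genes rose and 3 fell, a share of 15.4%, beside 24.4% of all genes. Foxo3, a relative of FOXO1, was 5.79 and 4.96 FPKM in gelADSC, against 2.17 and 1.68 FPKM in Control (change 1.13, limma adjusted p = 0.00849). Trib3, a stress-induced pseudokinase that binds AKT, fell to 0.939 and 1.14 FPKM in gelADSC, against 17.9 and 5.33 FPKM in Control (change -2.43, limma adjusted p = 0.00638). Grb14, an adaptor that inhibits the insulin receptor, fell to 17.5 and 23.1 FPKM in gelADSC, against 47.0 and 38.8 FPKM in Control (change -1.05, limma adjusted p = 0.0105). Gsk3a, a kinase that AKT inhibits, fell to 12.6 and 16.8 FPKM in gelADSC, against 28.9 and 24.8 FPKM in Control (change -0.84, limma adjusted p = 0.0247). Without Control library 1 the list had 0 genes higher and 1 lower in limma, with adjusted p values of 0.0535 for Foxo3, 0.109 for Grb14 and 0.164 for Gsk3a, and a change of -1.64 for Trib3. The call of Gsk3a was also lost when the fit left out Control library 3 (0.0567) or gelADSC library 2 (0.178), or used median ratio scaling (0.0524), and Trib3 changed by -3.22 without Control library 3.

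Genes that answer to insulin and FOXO1 in hepatocytes went both ways, with 2 of 11 higher and 3 lower, 45.5% called beside 24.4% of all genes, and a median change of -0.12. Srebf1, the lipogenic regulator that insulin induces, rose to 62.9 and 36.1 FPKM in gelADSC, against 21.8 and 17.8 FPKM in Control (change 1.23, limma adjusted p = 0.0144). Pdk4, a kinase that blocks glucose oxidation and is induced in fasting, fell to 14.3 and 8.64 FPKM in gelADSC, against 53.6 and 58.0 FPKM in Control (change -2.22, limma adjusted p = 0.00074). G6pc, the glucose-6-phosphatase that FOXO1 activates, moved opposite to Igfbp1, at 73.3 and 141 FPKM in gelADSC, against 10.3 and 54.0 FPKM in Control (change 2.04, SE 0.63, limma adjusted p = 0.0463). Pck1, the other classical FOXO1 target of glucose production, was the most abundant gene of the list, at 770 and 1057 FPKM in gelADSC, against 1099 and 2240 FPKM in Control (change -0.80, limma adjusted p = 0.124).

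Tat, a tyrosine aminotransferase, fell to 364 and 388 FPKM in gelADSC, against 598 and 1162 FPKM in Control, and Trib1, a pseudokinase, to 11.9 and 7.31 FPKM in gelADSC, against 20.6 and 17.3 FPKM in Control. The call of G6pc was lost when Control library 1 was left out (change 0.90, adjusted p = 0.263), after median ratio scaling (0.131) and in 4 other settings, and its change was 3.18 without Control library 3. Srebf1 lost its call when any of Control library 1 (0.112), Control library 3 (0.0927) or gelADSC library 2 (0.0541) was left out. Tat lost it when Control library 3 was left out (0.0881) or the libraries were scaled by median ratios (0.194). Trib1 lost it when any of Control library 1 (0.204), Control library 3 (0.0767) or gelADSC library 3 (0.185) was left out, or after median ratio scaling (0.12). Without gelADSC library 3 the change of Pck1 was -1.03. The list had 0 genes higher in limma without Control library 1, and 1 lower without Control library 3.

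Growth hormone also sets sex differences of mouse liver, through pulses in males and a steadier level in females. Of 12 male-biased genes 7 rose and 1 fell, 66.7% called beside 24.4% of all genes, with a median change of 1.18. Selenbp2 rose to 91.8 and 112 FPKM in gelADSC, against 6.96 and 10.9 FPKM in Control (change 3.39, limma adjusted p = 0.000112). Cyp7b1, an oxysterol hydroxylase, rose with a change of 2.75 (limma adjusted p = 0.000527). Slco1a1, an organic anion transporter, rose to 10.5 and 26.6 FPKM in gelADSC, against 3.23 and 2.1 FPKM in Control. Susd4, a complement regulator, was the gene counted as lower, at 0.483 and 0.244 FPKM in gelADSC, against 2.44 and 1.30 FPKM in Control. Susd4 passed the filter on low values through its level in Control alone, and Hsd3b5 through its level in gelADSC alone, so each could be called in 1 direction only. Apart from these, 6 of the male-biased genes were called higher. The list was not uniform, since Elovl3 read 4.99 and 30.4 FPKM in gelADSC and 16 and 23.4 FPKM in Control, and Cyp4a12a 48.3 and 41.3 FPKM in gelADSC and 49.1 and 37.1 FPKM in Control. Cyp4a12b was lower in both gelADSC libraries than in either control, but not called (change -0.55, limma adjusted p = 0.0617). Mup20 overlapped between groups (change 0.55, limma adjusted p = 0.244). Outside the list, Mup1, Mup7, Mup8, Mup12 and Mup15 were called lower, with changes of -3.71, -2.84, -3.14, -3.51 and -4.25. Other Mup genes are not described here. The counts above thus cover the listed genes only. Elovl3, the Cyp4a12 genes and these Mup genes were named after their values were seen.

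Of 11 female-biased genes 4 were tested, and limma called 2 higher and 0 lower (at an unadjusted p under 0.05, 2 and 0), 50% called beside 24.4% of all genes. Both called genes passed the filter through their level in gelADSC alone, so they could be called higher only, and the 7 genes not tested were low in both groups. The count is therefore a description and says nothing about the female-biased pattern. Cyp2a4 was 4.59 and 10.4 FPKM in gelADSC, against 0.146 and 0.0966 FPKM in Control, and Cyp2b9 3.25 and 12.3 FPKM in gelADSC, against 0.0802 and 0.147 FPKM in Control. The labels used here do not give the sex of the mice. Cyp2a4, Cyp2b9, Slco1a1 and the male-biased Cyp2d, Cyp4a12 and Mup genes belong to families of similar genes, as do Selenbp2 and Serpina1e. Their values are uncertain, since the sharing of reads between similar genes was not checked. Without Control library 1, adjusted p values were 0.0789 for Slco1a1, 0.108 for Cyp2b9 and 0.145 for Susd4, with 4 male-biased genes higher and 0 lower and 1 female-biased gene higher. Without Control library 3 they were 0.0591 for Slco1a1 and 0.0541 for Cyp2b9, with 4 male-biased and 1 female-biased genes higher. Without gelADSC library 2 the change was 2.93 for Slco1a1 and 3.58 for Cyp2b9, and 2 female-biased genes were lower. Without gelADSC library 3 it was 1.67 and 1.93, and 2 male-biased genes were lower.

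**Figure D5:**
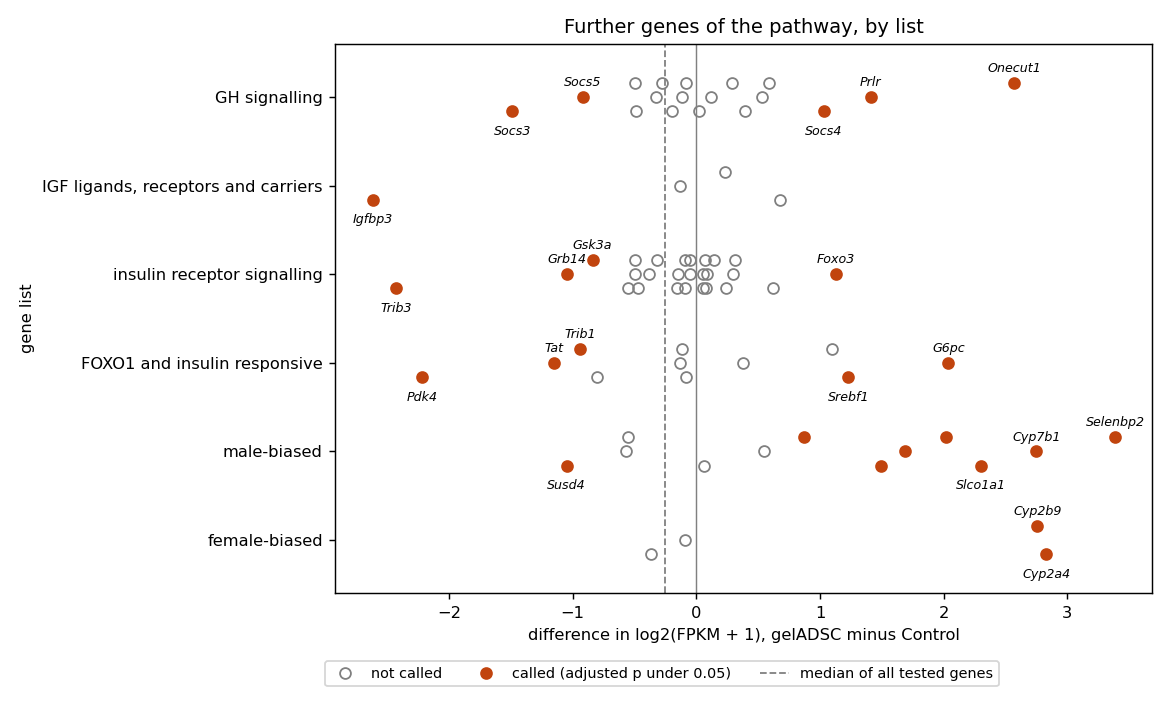
Differences in log2(FPKM + 1), gelADSC minus Control, for the tested genes of 6 lists, with called genes filled and the genes named by rule labelled. The dashed line marks the median of all tested genes at -0.25. Called genes lie on both sides in 4 of the lists, and the largest increase shown is that of Selenbp2 at 3.39.

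Transcript of other cell types was also compared, because the gelADSC livers had received cells. Beside the counts below, 6.92% of all genes tested were called higher and 17.5% lower. The summed level of 6 adipose stromal markers was 51.2 and 31.1 FPKM in gelADSC, against 55.6 and 45.5 FPKM in Control, with 0 of 4 tested called in limma (at an unadjusted p under 0.05, 0 higher and 1 lower). Ly6a and Dpp4 made up most of this sum, and Pi16 and Thy1 were below the filter. Whether the given cells were present in the livers was not tested. The 5 adipocyte markers summed to 39.6 and 12.6 FPKM in gelADSC, against 101 and 55.7 FPKM in Control, and both of the 2 tested, Fabp4 and Cidea, were called lower. Most of that sum was Fabp4, at 38.6 and 12.5 FPKM in gelADSC, against 98.0 and 52.4 FPKM in Control. Adipoq, Plin1 and Lep were below the filter and overlapped between groups. Cidea, at 0.0704 and 0.0853 FPKM in gelADSC, against 1.55 and 3.27 FPKM in Control, passed the filter through its level in Control alone. Cidea could therefore be called lower only. The sum of the 6 stellate cell markers overlapped between groups, at 113 and 102 FPKM in gelADSC and 131 and 65.2 FPKM in Control. Dcn made up most of it, at 85.2 and 73.5 FPKM in gelADSC, against 113 and 55.3 FPKM in Control (change 0.00). Of the 6, 3 were called higher, Lrat, Reln and Colec11, with changes of 0.75, 0.92 and 1.56. Bile duct markers summed to 57.7 and 49.5 FPKM in gelADSC, against 169.8 and 311 FPKM in Control, with 2 called lower, Spp1 and Sox9. Spp1 made up most of this sum, at 52.1 and 43.5 FPKM in gelADSC, against 149.6 and 298 FPKM in Control. Krt7, Krt19 and Epcam were not called, with changes of -0.16, -0.66 and 0.03. The 4 neutrophil markers found summed to 70.6 and 24.7 FPKM in gelADSC, against 70.5 and 64.4 FPKM in Control. Of 3 tested, 1 was called lower, Retnlg, with a change of -1.52 (limma adjusted p = 0.00365). The 5 T and B cell markers summed to at most 1.58 FPKM in any library. The part of these cells in the values of Igf1 and its binding proteins was not tested.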

How the data were processed

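Liver RNA of 4 libraries was analysed, 2 of gelADSC and 2 of Control, from poly(A) stranded libraries per the labels' protocols. The authors deposited 1 value per gene symbol and library. The header names no unit, and the deposited values were taken as FPKM because Cufflinks 2.2.1 is named, with Trimmomatic 0.38 and TopHat2 2.1.1, per the submitters' processing notes. Those notes name hg19, although the symbols are of mouse, so no coordinates of the table were used. Columns were tied to groups by name only, since their numbers differ from those of the sample titles.

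The filter kept genes averaging 1 FPKM or more, tested as log2(FPKM + 1), unscaled, with limma 3.58.1 in R 4.3.3 (mean-variance trend, two-sided, Benjamini-Hochberg over all genes), a script also tested on simulated data. No count test was run, FPKM not being counts. Depth was inferred from steps between values under 0.2 FPKM, with gene lengths of GENCODE M21. The totals are approximate, since 364 of 1180 single-transcript genes fell in the most frequent bin.

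The 10 genes, 6 lists (97 symbols, with 2 list genes not reported here) and 9 marker lists were chosen with earlier results of these data known. In each list the called genes with the largest change were named, at most 3 a direction, and outside the sex-biased lists the most abundant gene. Alternatives were 2 other pseudocounts (0.1 and 5), no filter, 2 scalings, no trend and each library left out.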

Additional observations from a re-analysis of the deposited data

How the results depend on the processing

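No paired analysis was possible because the columns of the groups share 1 number only, and nothing ties the numbers to pairs. Of 10 alternative settings, all kept the direction and call of Ghr, Igfals and Igfbp1. With libraries left out in turn the change of Igf1 ran from 0.62 to 0.92, of Igfbp2 from 0.42 to 0.96, of Socs2 from 0.24 to 1.26, of Cish from -0.31 to 1.55 and of Irs2 from -0.21 to 0.30 (-0.15 without Control library 1). With no filter Igf1 was not called (0.77, limma adjusted p = 0.0567). With median ratio scaling Igfbp2 (0.93) and Insr (0.66) were called, as was Insr with quantile normalization (0.73). Hnf4a changed by 0.12 and 0.01 with these scalings, and Igfbp7 by -0.13 without Control library 3. The scalings moved the median change of all genes to -0.04, and the share of calls that were higher from 28.3% to 44.2% and 48.2%. The cause of each was not tested.

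Of the 10 genes, 3 were called higher, and 5 with median ratio scaling, or 2 to 5 with libraries left out. Over all genes 730 were lower with no filter, 1123 after median ratio scaling and 1000 after quantile normalization, against 1936. With libraries left out 279 to 815 were higher and 326 to 1765 lower (1221 without gelADSC library 2). In growth hormone signalling 1 was higher and 1 lower with no filter, 5 and 0 after median ratio scaling, 5 and 1 after quantile normalization, and 1 to 4 higher and 0 to 2 lower with libraries left out. Among IGF ligands and carriers 1 was higher with either scaling or with no trend. In insulin receptor signalling 0 were higher and 1 lower with no filter, and 0 to 1 higher and 1 to 3 lower with libraries left out. Among insulin and FOXO1 responsive genes 0 were higher and 1 lower with no filter, 1 and 1 with either scaling, 1 higher with a pseudocount of 5 or with no trend, and 0 to 3 higher and 1 to 3 lower with libraries left out. Of male-biased genes 4 were higher and 0 lower with no filter, 0 lower with median ratio scaling, and 4 to 7 higher and 0 to 2 lower with libraries left out. Of female-biased genes 1 was higher with no filter, and 1 to 3 higher and 0 to 2 lower with libraries left out. With 1 library left in a group, that group shows no spread of its own. Limma then leans on a spread estimated across genes. Adjusted p values and calls from such fits can therefore overstate the evidence.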

Other observations

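Cux2, a repressor of male-biased genes that female livers express, read 0.128 and 0.0971 FPKM in the gelADSC libraries, against 0.0981 and 1.21 FPKM in the control libraries, and was below the filter. This gene was chosen after its values were seen.

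Igf2bp2, an RNA-binding protein named for its target Igf2, was below the filter at 0.294 and 0.738 FPKM in gelADSC, against 1.67 and 1.06 FPKM in Control. Pappa and Pappa2, proteases that free IGF from its binding proteins, were at most 0.0865 FPKM in any library.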
